A study of Mus musculus with 12 samples.

Results

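The genes described here are the 37 genes of cholesterol synthesis, fatty acid synthesis and sterol efflux, with the SREBP regulators that control them, as measured by RNA sequencing in group 2 innate lymphoid cells (ILC2s) of the mouse lung. Members were found by gene symbol, and all 37 were listed both among the 18601 genes tabulated for LAIR-1 knockout (KO) and wild-type (WT) cells and among the 21361 genes tabulated for WT cells sorted by surface LAIR-1. They comprise 5 SREBP regulators, 17 enzymes of sterol synthesis, 5 genes of sterol transfer, efflux and the LXR receptor, and 10 genes of fatty acid synthesis. A filter on low counts left 36 members in KO against WT, where Scd1 was not tested, and all 37 in the sorted cells.

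ILC2s are tissue-resident lymphocytes that release type 2 cytokines, and LAIR-1 is an inhibitory receptor that binds collagen. There were 3 libraries in each of 4 groups: ILC2s of LAIR-1 KO mice (libraries 13, 14 and 15), ILC2s of WT mice (9, 10 and 11), WT ILC2s without surface LAIR-1 (LAIR-1-; 7, 8 and 10) and WT ILC2s carrying it (LAIR-1+; 1, 2 and 3). All mice were C57BL/6 and 8 weeks old, all had been given recombinant mouse IL-33 through the nose 3 times (0.5 µg per mouse). All sorted cells were then kept with IL-2 and IL-7 (each 10 ng per mL) for 24 hours, so every group holds cytokine-activated cells and none is at rest. The labels give neither the knockout allele nor the cells in which it acts, and they do not say whether the libraries of a group come from separate animals, so p-values measure only the spread between these libraries.

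SREBP transcription factors are made as membrane proteins of the endoplasmic reticulum. When membrane sterols are low, the escort protein SCAP carries them to the Golgi, where proteases free the active factor; when sterols are high, INSIG proteins hold SCAP back. SREBP-2, from Srebf2, mainly drives the genes of cholesterol synthesis, and SREBP-1, from Srebf1, mainly those of fatty acid synthesis. LXR receptors work in the opposite direction: they sense oxidised sterols and induce sterol efflux pumps, and they also induce Srebf1. Lymphocytes draw on both synthesis routes for new membrane when they are activated.

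The KO and WT libraries held 18061470 to 20878649 estimated counts and the sorted libraries 18885002 to 28290487, of which the members took 0.304% to 0.335% and 0.269% to 0.295%. Levels are given as CPM, the usual unit of counts relative to library size, here with totals corrected for composition by the TMM method. Lair1 itself had 9, 0 and 67 counts in KO libraries 13, 14 and 15, against 70, 200 and 153 in WT libraries 9, 10 and 11. KO 15, at 3.28 CPM, came close to WT 9, at 3.75 CPM. The labels do not say which part of the gene was removed. Between the sorted fractions Lair1 had 21, 11 and 56 counts in LAIR-1- cells and 184, 312 and 314 in LAIR-1+ cells. The 10 ILC2 markers summed to 10900 to 13600 CPM in KO cells, 8600 to 9280 CPM in WT cells, 7310 to 7730 CPM in LAIR-1- cells and 7580 to 8460 CPM in LAIR-1+ cells. Gata3, the lineage factor among them, had 953 to 1100 CPM in KO cells, 1190 to 1390 CPM in WT cells, 1110 to 1200 CPM in LAIR-1- cells and 1240 to 1280 CPM in LAIR-1+ cells. Of the 10, 3 had higher values in KO cells, and the sum was carried by the cytokine gene Il5, with 7590, 9760 and 9840 CPM in KO cells and 4400, 5250 and 5370 CPM in WT cells. In both comparisons groups were compared by the quasi-likelihood F test of edgeR with Benjamini-Hochberg adjustment across every tested gene, and a gene passed at an adjusted p under 0.05. Log2 fold changes are given with their standard error (SE). In sorted bulk samples, fewer cells of a type and less RNA per cell cannot be told apart.

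Both synthesis routes were expressed in all 4 groups. Levels per kilobase of exon allow a rough comparison between genes. The length used is that of the merged exons of all annotated transcripts, so the ranks depend on the annotation. On this scale sterol enzymes ran from 3.87 (Dhcr7, the last step to cholesterol on its route) to 49.6 CPM per kb (Idi1, isopentenyl diphosphate isomerase) in KO cells. In WT cells they ran from 4.22 CPM per kb (Dhcr7) to 45.4 CPM per kb (Cyp51, lanosterol demethylase). The highest members on this scale were 2 fatty acid genes: Elovl5, an elongase of polyunsaturated fatty acids, with 71.5 CPM per kb in KO cells and 82.5 in WT cells, and Acly, which makes cytosolic acetyl-CoA from citrate, with 68.6 in KO cells and 62.0 in WT cells. The lowest were also fatty acid and efflux genes. Scd1, a stearoyl-CoA desaturase, had 0.00323 CPM per kb in KO cells, 0.0409 in WT cells, 0.258 in LAIR-1- cells and 0.243 in LAIR-1+ cells, while its relative Scd2 had 11.9 CPM per kb in KO cells, 10.9 in WT cells, 11 in LAIR-1- cells and 9.67 in LAIR-1+ cells. The cholesterol pump Abca1 had 0.327 CPM per kb in KO cells and 0.312 in WT cells, and the acetyl-CoA carboxylase Acaca had 0.769 and 0.848 CPM per kb in KO and WT cells. The desaturase Fads2 had 0.874 CPM per kb in KO cells and 0.42 in WT cells, and the elongase Elovl6 had 0.871 and 0.836.

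**Figure D1:**
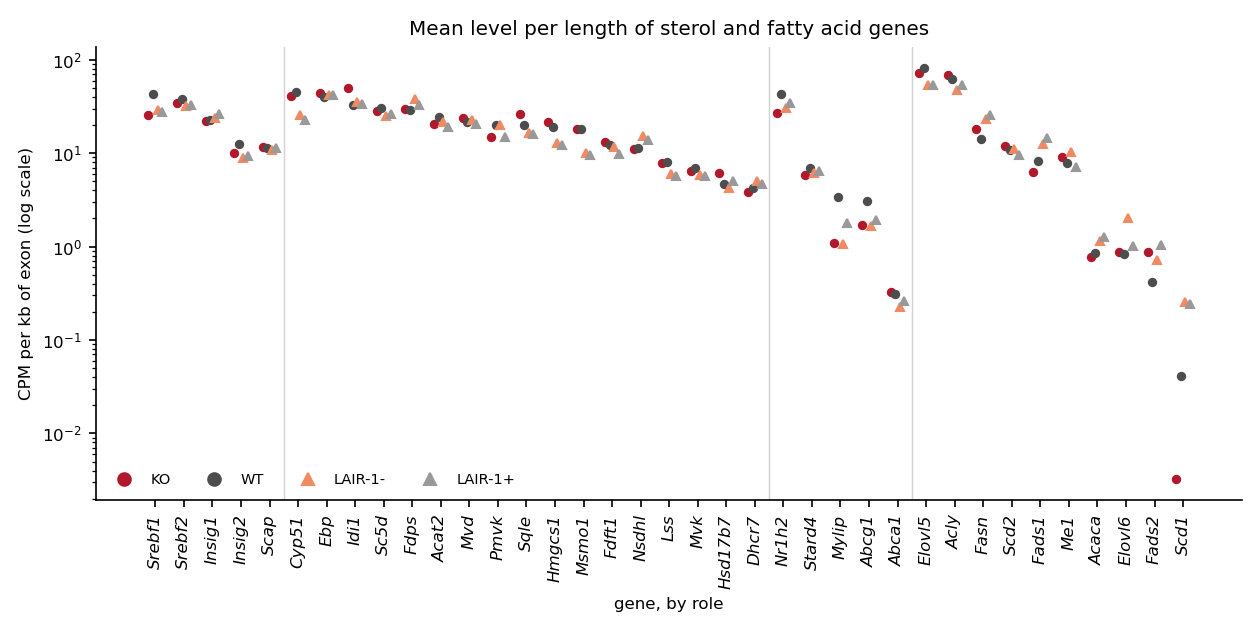
Mean level of each of the 37 genes per kilobase of exon (CPM per kb, log axis), 3 libraries a group, with KO and WT as circles and LAIR-1- and LAIR-1+ as triangles; grey lines part SREBP regulators, sterol synthesis enzymes, the transfer, efflux and LXR genes, and fatty acid genes, and genes run from high to low in WT. The KO and WT tables and the sorted tables were scaled apart, so only circles, or only triangles, may be compared. Sterol enzymes lie between 3.87 and 49.6 CPM per kb in all groups, while fatty acid genes run from 82.5 (Elovl5 in WT) down to Scd1.

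The promoters of the members were searched for fixed motifs that SREBP and its partner factors are known to use. The windows shown are those of Elovl6 and Me1, the 2 genes that passed. Those of Srebf1, Idi1 and Nr1h2, the 3 that DESeq2 called in KO against WT, are also given. So is the 1 window that held a classical sterol regulatory element. The windows of Pmvk, which DESeq2 called between the sorted fractions, are not shown. Windows of 300 bases, from 250 before to 50 after each start, came from RefSeq (GRCm38.p6). For the members, 38 windows of 29 of the 37 genes were searched. Stard4 was left out of this member set, so the member shares do not cover it. The sterol regulatory element TCACNCCAC (N is any base; both strands searched) was found in 1 of these 38 windows, that of Hmgcs1 at base -137, against 1.24% of all 32851 mouse windows. The box CCAAT, bound by NF-Y, was found on either strand in 60.5% of member windows and in 13 of the 17 windows of sterol enzymes, against 37.4% of all windows. The box GGGCGG, bound by Sp1, was found in 71.1% of member windows, against 35.7% of all windows. These matches describe the letters only. Sites of other letters or outside the windows were not searched. A window without a match therefore does not show that its gene lacks an SREBP site. Each window is given 5′ to 3′ on the strand of its gene, with the sterol regulatory element and CCAAT boxes in capitals, a box on the other strand reading ATTGG; Hmgcs1 makes HMG-CoA, and Srebf1 has 3 annotated starts, whose transcripts the gene-level counts do not separate.
Hmgcs1 (chr13:119690101-119690400, plus strand): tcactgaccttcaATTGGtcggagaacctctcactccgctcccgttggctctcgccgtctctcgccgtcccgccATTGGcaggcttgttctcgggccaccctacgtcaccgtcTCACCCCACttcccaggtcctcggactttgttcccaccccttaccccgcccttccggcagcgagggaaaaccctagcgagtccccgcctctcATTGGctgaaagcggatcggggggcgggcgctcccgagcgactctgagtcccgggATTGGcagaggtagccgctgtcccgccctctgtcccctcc
Srebf1 (chr11:60222532-60222831, minus strand): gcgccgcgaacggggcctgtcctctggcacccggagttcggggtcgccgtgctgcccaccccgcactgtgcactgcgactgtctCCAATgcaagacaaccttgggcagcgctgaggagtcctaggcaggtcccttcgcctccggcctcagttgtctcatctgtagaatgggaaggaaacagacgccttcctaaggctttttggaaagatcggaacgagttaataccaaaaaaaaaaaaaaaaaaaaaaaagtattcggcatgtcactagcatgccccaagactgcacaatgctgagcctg
Srebf1 (chr11:60220578-60220877, minus strand): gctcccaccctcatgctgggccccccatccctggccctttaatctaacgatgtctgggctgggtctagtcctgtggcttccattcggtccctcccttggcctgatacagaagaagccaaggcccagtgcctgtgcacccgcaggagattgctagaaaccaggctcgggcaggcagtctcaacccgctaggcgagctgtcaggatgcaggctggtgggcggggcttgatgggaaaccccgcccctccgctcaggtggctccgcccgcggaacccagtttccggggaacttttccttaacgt
Srebf1 (chr11:60210422-60210721, minus strand): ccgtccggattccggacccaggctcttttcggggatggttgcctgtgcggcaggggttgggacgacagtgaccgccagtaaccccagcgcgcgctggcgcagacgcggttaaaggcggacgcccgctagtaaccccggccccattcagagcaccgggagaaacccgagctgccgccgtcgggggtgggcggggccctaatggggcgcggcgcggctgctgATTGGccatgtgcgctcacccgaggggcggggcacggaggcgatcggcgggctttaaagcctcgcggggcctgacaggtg
Idi1 (chr13:8885356-8885655, plus strand): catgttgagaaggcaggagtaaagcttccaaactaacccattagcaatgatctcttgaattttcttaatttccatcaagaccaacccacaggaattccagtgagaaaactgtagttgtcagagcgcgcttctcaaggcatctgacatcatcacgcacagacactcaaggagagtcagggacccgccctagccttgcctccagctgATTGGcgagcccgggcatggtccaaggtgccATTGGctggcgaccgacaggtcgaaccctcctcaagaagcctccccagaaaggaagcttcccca
Elovl6 (chr3:129532136-129532435, plus strand): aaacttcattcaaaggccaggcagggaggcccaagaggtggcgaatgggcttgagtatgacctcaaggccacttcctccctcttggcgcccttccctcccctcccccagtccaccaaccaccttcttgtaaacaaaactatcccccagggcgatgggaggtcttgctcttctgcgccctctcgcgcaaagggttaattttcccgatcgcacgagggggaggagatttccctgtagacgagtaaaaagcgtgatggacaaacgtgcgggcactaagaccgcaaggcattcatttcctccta
Me1 (chr9:86695865-86696164, minus strand): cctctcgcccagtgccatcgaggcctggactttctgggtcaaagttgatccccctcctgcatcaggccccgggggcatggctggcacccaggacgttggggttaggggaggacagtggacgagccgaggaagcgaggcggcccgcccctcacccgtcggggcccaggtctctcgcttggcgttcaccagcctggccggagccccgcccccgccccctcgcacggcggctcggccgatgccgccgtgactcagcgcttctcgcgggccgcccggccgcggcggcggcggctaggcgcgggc
Me1 (chr9:86687228-86687527, minus strand): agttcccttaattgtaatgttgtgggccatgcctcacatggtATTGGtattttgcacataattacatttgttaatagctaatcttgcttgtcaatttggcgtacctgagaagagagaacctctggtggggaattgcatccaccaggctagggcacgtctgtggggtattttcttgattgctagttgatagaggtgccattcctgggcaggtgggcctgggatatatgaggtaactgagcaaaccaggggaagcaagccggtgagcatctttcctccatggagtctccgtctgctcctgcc
Nr1h2 (chr7:44553916-44554215, minus strand): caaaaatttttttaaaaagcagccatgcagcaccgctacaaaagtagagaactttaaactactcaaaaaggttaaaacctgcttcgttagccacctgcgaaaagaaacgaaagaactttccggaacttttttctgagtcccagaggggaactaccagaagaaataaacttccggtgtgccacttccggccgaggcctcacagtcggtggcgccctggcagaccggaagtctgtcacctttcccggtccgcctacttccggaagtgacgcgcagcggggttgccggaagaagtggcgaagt
Hmgcs1 holds 4 CCAAT boxes beside its sterol regulatory element and Idi1 holds 2. The windows of Elovl6 and Nr1h2 hold none of the 3 motifs.

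The first comparison asks what the loss of LAIR-1 did to these genes in activated ILC2s. None of the 36 members tested passed in KO against WT, in a comparison where 0% of all 14164 genes passed as higher and 0.00706% (1 gene) as lower in KO cells. By edgeR, 6 of the 36 members and 1186 of all genes had an unadjusted p under 0.05, and the smallest p among members was that of Srebf1. DESeq2 called 3 members, Idi1 as higher and Srebf1 and Nr1h2 as lower in KO cells, in a fit where 1.45% of the 9770 genes given an adjusted p passed as higher and 1.59% as lower. For Srebf1 the 3 KO libraries all lay below the 3 WT libraries, with Nr1h2, Abcg1 and Mylip, genes of the LXR and efflux branch, on the same side. Idi1 and Sqle, enzymes of sterol synthesis, lay on the other side. Groups did not overlap for 2 members higher in KO cells, Idi1 and Sqle (5.56%, against 8.2% of all genes), and for 5 lower in KO cells (13.9%, against 7.97% of all genes), which were Srebf1, Abcg1, Nr1h2, Mylip and Elovl5. These 7 became 13 without KO 14, when 2 KO libraries face 3 WT libraries, and numbered 7 without KO 15. With fewer libraries groups separate more easily for any gene, and the matching share of all genes was not computed. The median log2 fold change was -0.02 over the 36 members and 0.00 over all genes.

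Among the SREBP regulators, Srebf1 (chromosome 11, 60199089 to 60222581, minus strand, mm10) had 137, 141 and 160 CPM in KO libraries 13, 14 and 15, against 246, 243 and 231 CPM in WT libraries 9, 10 and 11. The groups were far apart relative to their spread, with 146 ± 12.6 CPM in KO cells and 240 ± 8.17 CPM in WT cells (SD, n = 3 each). The log2 fold change was -0.72 (SE 0.10, 95% interval -0.94 to -0.49), with an adjusted p of 0.163 by edgeR. The call depended on which genes were tested: among the 4723 genes averaging 50 CPM or more, where 0.529% passed as higher and 0.635% as lower in KO cells, Srebf1 passed with an adjusted p of 0.0103, and it passed in DESeq2 with an adjusted p of 2.5e-08. Within that set of genes, and chosen after seeing the data, leaving out each library gave adjusted p from 0.0284 to 0.0685, the highest without KO 14. Without KO 15, the KO library with the most Lair1 counts, its log2 fold change was -0.79, that of Idi1 was 0.66 and that of Nr1h2 was -0.72.

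The other 4 regulators did not separate the groups. Srebf2 had 255, 256 and 235 CPM in KO cells and 314, 248 and 263 CPM in WT cells, overlapping, with a log2 fold change of -0.15 (SE 0.11, adjusted p 0.798). Insig1, itself a target of SREBP, had 58.5, 77.5 and 71.0 CPM in KO cells and 69.3, 61.2 and 79.7 CPM in WT cells. Its log2 fold change was -0.02 (SE 0.17, 95% interval -0.42 to 0.37, adjusted p 0.989), so the data leave room for a change of either sign within that interval. Scap and Insig2 overlapped between the groups as well. Per kilobase, Srebf1 stood below Srebf2 in KO cells (25.9 and 34.6 CPM per kb), and above it in WT cells (42.6 and 38.3 CPM per kb).

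**Figure D2:**
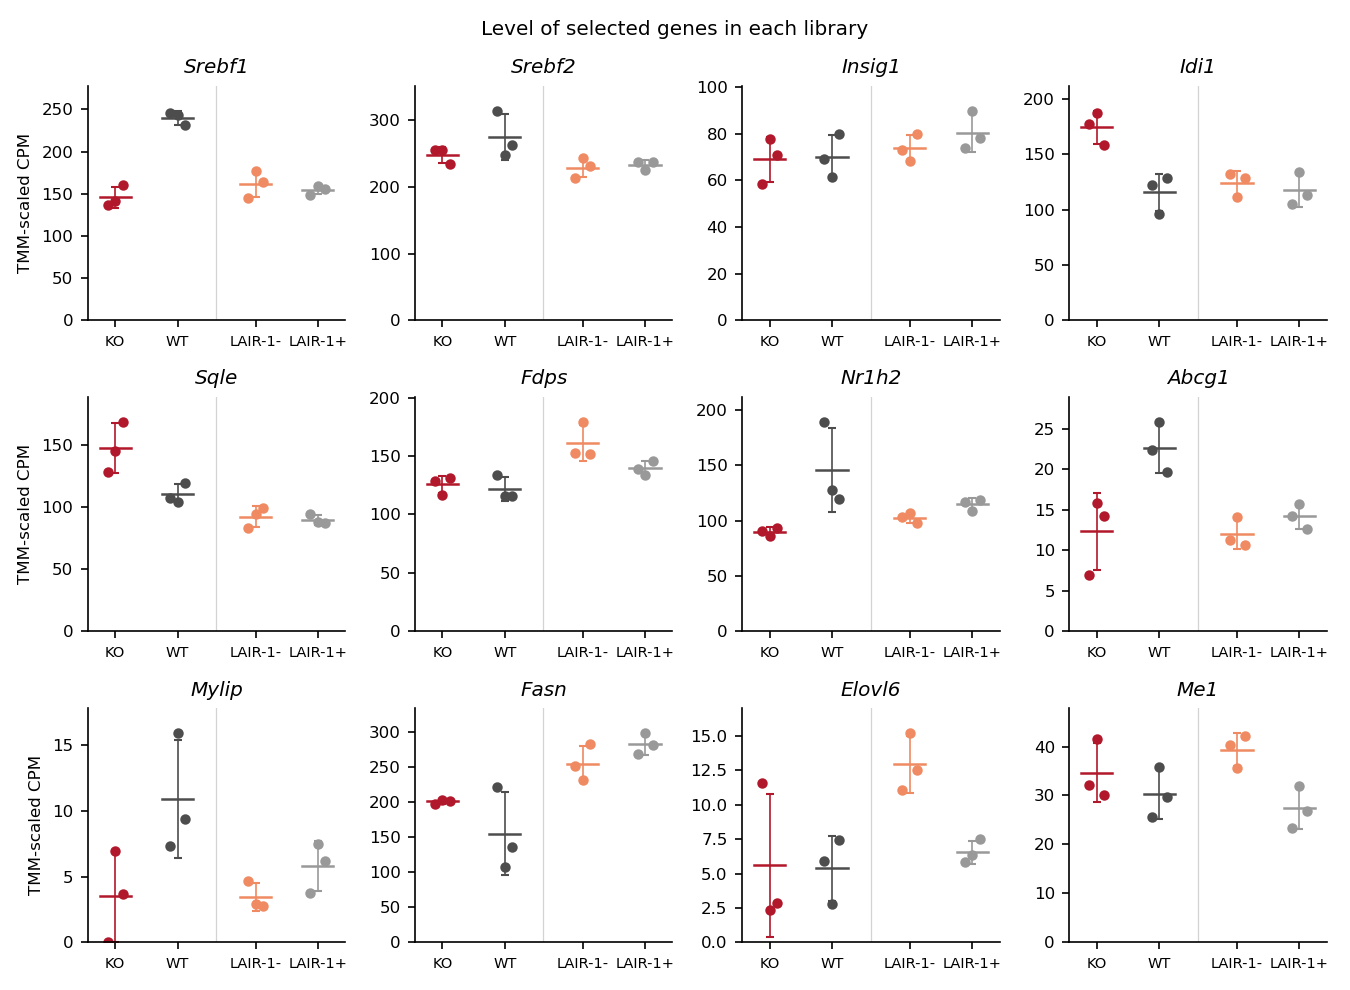
TMM-scaled CPM of 12 genes in each library (points), with the group mean (long line) and SD (whiskers), 3 libraries a group, in the order KO, WT, LAIR-1-, LAIR-1+; the grey line parts the separately scaled tables, and each axis starts at 0. KO points lie below all WT points for Srebf1, Nr1h2, Abcg1 and Mylip and above them for Idi1 and Sqle, and LAIR-1- points lie above all LAIR-1+ points for Fdps, Elovl6 and Me1.

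The summed level of the 17 sterol enzymes overlapped between KO and WT cells, at 1400, 1410 and 1520 CPM in KO libraries 13, 14 and 15 and 1400, 1250 and 1440 CPM in WT libraries 9, 10 and 11. Their log2 fold changes ran from -0.42 to 0.59 with a median of -0.01 (-0.02 to 0.08 with a library left out), 8 above and 9 below 0. Idi1, the isomerase that makes the second building block of isoprenoids, had 177, 187 and 158 CPM in KO cells and 122, 96.1 and 128 CPM in WT cells. The groups did not overlap, and its log2 fold change was 0.59 (SE 0.14, 95% interval 0.26 to 0.92) with an adjusted p of 0.318 by edgeR and 0.00895 by DESeq2. Sqle, squalene epoxidase and a slow step of the pathway, had 128, 145 and 168 CPM in KO cells and 107, 104 and 119 CPM in WT cells, with a log2 fold change of 0.42 (SE 0.13, adjusted p 0.458). The other 15 enzymes overlapped between KO and WT cells, among them Hmgcs1, an early enzyme of the route, with 123, 74.3 and 99.6 CPM in KO cells and 84.9, 74.0 and 104 CPM in WT cells. Idi1 shares 9.22% of its exon bases with the transcript Gm48574 on the opposite strand, and the labels do not say whether counting used strand.

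None of the 5 genes of sterol transfer, efflux and LXR passed. Their median log2 fold change was -0.69, against 0.00 over all genes, with 1 of the 5 above 0 (20%, against 50.4% of all genes). That median was -1.09 without KO 14 and -0.46 without WT 9. Nr1h2, which encodes LXR-beta, had 90.6, 86.1 and 93.8 CPM in KO cells and 189, 128 and 120 CPM in WT cells. WT 9 stood above the other WT libraries, and the groups did not overlap. The log2 fold change was -0.69 (SE 0.19) with an adjusted p of 0.402 by edgeR and 0.0307 by DESeq2, and it was -0.46 without WT 9. Abcg1, a pump that passes cholesterol to lipoproteins, had 6.97, 15.8 and 14.2 CPM in KO cells and 22.4, 25.8 and 19.7 CPM in WT cells, a log2 fold change of -0.88 (SE 0.35, adjusted p 0.575). Mylip, a ubiquitin ligase that LXR induces and that removes lipoprotein receptors, had 0, 137 and 75 counts in KO cells and 137, 288 and 188 counts in WT cells. In CPM its groups did not overlap, but only narrowly: KO 14 and WT 9, with 137 counts each, stood at 6.98 and 7.34 CPM. The 0 in KO 13, which allows up to 0.142 CPM by counting error alone, left a log2 fold change of -1.62 with an SE of 1.36 (adjusted p 0.828). It was -1.03 without KO 13, -2.56 without KO 14 and -3.69 by limma-voom, so its size is poorly set.

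Abca1, the partner pump of Abcg1, showed no such order and was thinly counted, with 0, 188 and 12 counts in KO cells and 81, 13 and 93 in WT cells. Its 95% interval ran from -4.03 to 4.16 on the log2 scale around a fold change of 0.06, so nothing can be said of its direction. The sterol carrier Stard4 overlapped between the groups.

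Fatty acid genes showed no common direction in KO cells. Fasn, fatty acid synthase, had 197, 203 and 202 CPM in KO cells and 221, 107 and 136 CPM in WT cells. The KO libraries agreed closely and lay inside the wide range of the WT libraries, and the log2 fold change of 0.38 (SE 0.25, adjusted p 0.776) was 0.73 without WT 9 and 0.17 without WT 10. Elovl5 had 248, 245 and 262 CPM in KO cells and 273, 298 and 300 CPM in WT cells, without overlap, a log2 fold change of -0.21 (SE 0.08, adjusted p 0.544). Me1, malic enzyme, which supplies NADPH, overlapped with 32.2, 41.5 and 30.2 CPM in KO cells and 25.6, 35.9 and 29.6 CPM in WT cells (log2 fold change 0.19, SE 0.22, adjusted p 0.899). Elovl6, an elongase of saturated and monounsaturated fatty acids, had 11.6, 2.39 and 2.84 CPM in KO cells and 5.89, 2.82 and 7.41 CPM in WT cells, with KO 13 alone high (log2 fold change 0.06, SE 0.75, adjusted p 0.993). Scd1 had 1, 0 and 0 counts in KO cells and 0, 0 and 12 in WT cells, too few to test. The median over the 9 tested was 0.12, running from 0.04 without KO 14 to 0.28 without KO 15. The extremes, -0.36 and 1.05, were those of the desaturases Fads1 and Fads2, the second resting on 2.51, 3.92 and 2.2 CPM in KO cells and 0, 0 and 4.15 CPM in WT cells (SE 1.87).

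Some other features of these libraries moved with the KO and WT groups. Of 7 markers of lung epithelium, 4 were listed, and their summed level was 18.9 to 26.7 CPM in KO cells and 49.4 to 116 CPM in WT cells. It was carried by Epcam with 16.9, 17.3 and 25.4 CPM in KO cells and 49.1, 52.1 and 55.9 CPM in WT cells, and by the club cell gene Scgb1a1 with 58.8 CPM in WT 11. Scgb1a1 also had 6.17 CPM in KO 14. The alveolar gene Sftpc was at 0 in all WT libraries and had 0.901 CPM in KO 13. Lamp3 went the other way from Epcam, with 1.09, 1.63 and 1.27 CPM in KO cells. Its WT values were 0.214, 1.22 and 1.1 CPM (log2 fold change 0.65, adjusted p 0.908 by edgeR). Macrophage markers, 3 of 8 listed, summed to 6.88 to 7.39 CPM in KO cells and 6.31 to 19.5 CPM in WT cells, and Adgre1 was at 0 in all KO libraries and in WT 10. The 13 mitochondrially encoded mRNAs, a sign of RNA quality, summed to 6250 to 6820 CPM in KO cells and 3310 to 5540 CPM in WT cells, lowest in WT 11. Of 5 markers of fibroblasts and endothelium 1 was listed, Pecam1. It had 44.4, 24.5 and 40.9 CPM in KO cells and 22.6, 20.6 and 18.9 CPM in WT cells, without overlap (log2 fold change 0.82, adjusted p 0.468). Summed markers of T cells, B cells, NK cells and ILC1, dendritic cells, and mast cells and basophils overlapped between KO and WT cells. No eosinophil or neutrophil marker was listed. No marker of these lists passed, and their part in the values of Srebf1, Idi1, Nr1h2 and Abcg1 was not tested. Without WT 11 the log2 fold change of Srebf1 was -0.74 and that of Idi1 was 0.67.

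The second comparison asks whether, among WT ILC2s, cells lacking surface LAIR-1 differed from cells bearing it. Of the fatty acid genes 2 passed, both higher in LAIR-1- cells: Elovl6 and Me1. They are 5.41% of the 37 members, against 1.3% of all 14261 genes that passed as higher, and no member passed as lower, against 2.71% of all genes. Replicates were closer here, with a median coefficient of variation over members of 8.96% in LAIR-1- cells and 7.1% in LAIR-1+ cells, against 17.2% in KO cells and 16.4% in WT cells of the other experiment. Groups did not overlap for 8 members higher in LAIR-1- cells (21.6%, against 9.64% of all genes), which were Pmvk, Mvd, Fdps, Fdft1, Nsdhl, Me1, Scd2 and Elovl6, and for 3 lower in LAIR-1- cells (8.11%, against 11.3%), which were Hsd17b7, Nr1h2 and Acaca. These 11 became 17 without LAIR-1+ 1, when 3 LAIR-1- libraries face 2 LAIR-1+ libraries. Here too groups separate more easily for any gene, and the matching share of all genes was not computed.

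Elovl6 (chromosome 3, 129532355 to 129638495, plus strand, mm10) had 11.1, 15.2 and 12.5 CPM in LAIR-1- libraries 7, 8 and 10, against 5.82, 6.36 and 7.48 CPM in LAIR-1+ libraries 1, 2 and 3. Every LAIR-1- library lay well above every LAIR-1+ library, at 12.9 ± 2.06 CPM in LAIR-1- cells and 6.56 ± 0.847 CPM in LAIR-1+ cells (SD, n = 3 each). The log2 fold change was 0.98 (SE 0.18, 95% interval 0.59 to 1.37, adjusted p 0.00855), and Elovl6 passed with each library left out, at adjusted p from 0.0122 to 0.0496. These values rest on 211, 289 and 360 counts in LAIR-1- cells and 123, 160 and 193 counts in LAIR-1+ cells.

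Me1 (chromosome 9, 86581371 to 86695953, minus strand, mm10) had 40.4, 35.6 and 42.1 CPM in LAIR-1- cells and 23.4, 32.0 and 26.9 CPM in LAIR-1+ cells. The groups did not overlap, LAIR-1+ 2 coming nearest to the LAIR-1- libraries, and the log2 fold change was 0.52 (SE 0.13, 95% interval 0.24 to 0.80, adjusted p 0.0454). The call was close to the threshold: the adjusted p was 0.0563 without the filter on low counts, 0.142 with either LAIR-1- 7 or LAIR-1- 10 left out, 0.196 with LAIR-1+ 1 left out and 0.105 when LAIR-1+ 3 was.

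The remaining fatty acid genes did not pass, and the core enzymes Acly, Acaca and Fasn had values on the other side of 0. Fasn had 251, 231 and 282 CPM in LAIR-1- cells and 268, 298 and 281 CPM in LAIR-1+ cells, a log2 fold change of -0.15 (SE 0.08, adjusted p 0.444). Acaca, which makes the malonyl-CoA that Fasn uses, had 19.8, 19.0 and 19.4 CPM in LAIR-1- cells and 22.3, 23.3 and 20.2 CPM in LAIR-1+ cells, without overlap (log2 fold change -0.17, SE 0.12, adjusted p 0.539). Scd2 had 58.4, 62.5 and 58.8 CPM in LAIR-1- cells and 50.7, 55.3 and 52.5 CPM in LAIR-1+ cells, also without overlap, but in the direction of Elovl6 and Me1 (log2 fold change 0.18, SE 0.09, adjusted p 0.35). Scd1 had 33, 25 and 21 counts in LAIR-1- cells and 17, 41 and 29 in LAIR-1+ cells, with a log2 fold change of 0.06 (SE 0.47, adjusted p 0.971). Summed over the 10 genes, fatty acid genes had 889, 823 and 964 CPM in LAIR-1- cells and 896, 1010 and 902 CPM in LAIR-1+ cells, and their median log2 fold change was -0.07 (-0.16 to -0.01 with a library left out), against 0.00 over all genes.

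**Figure D3:**
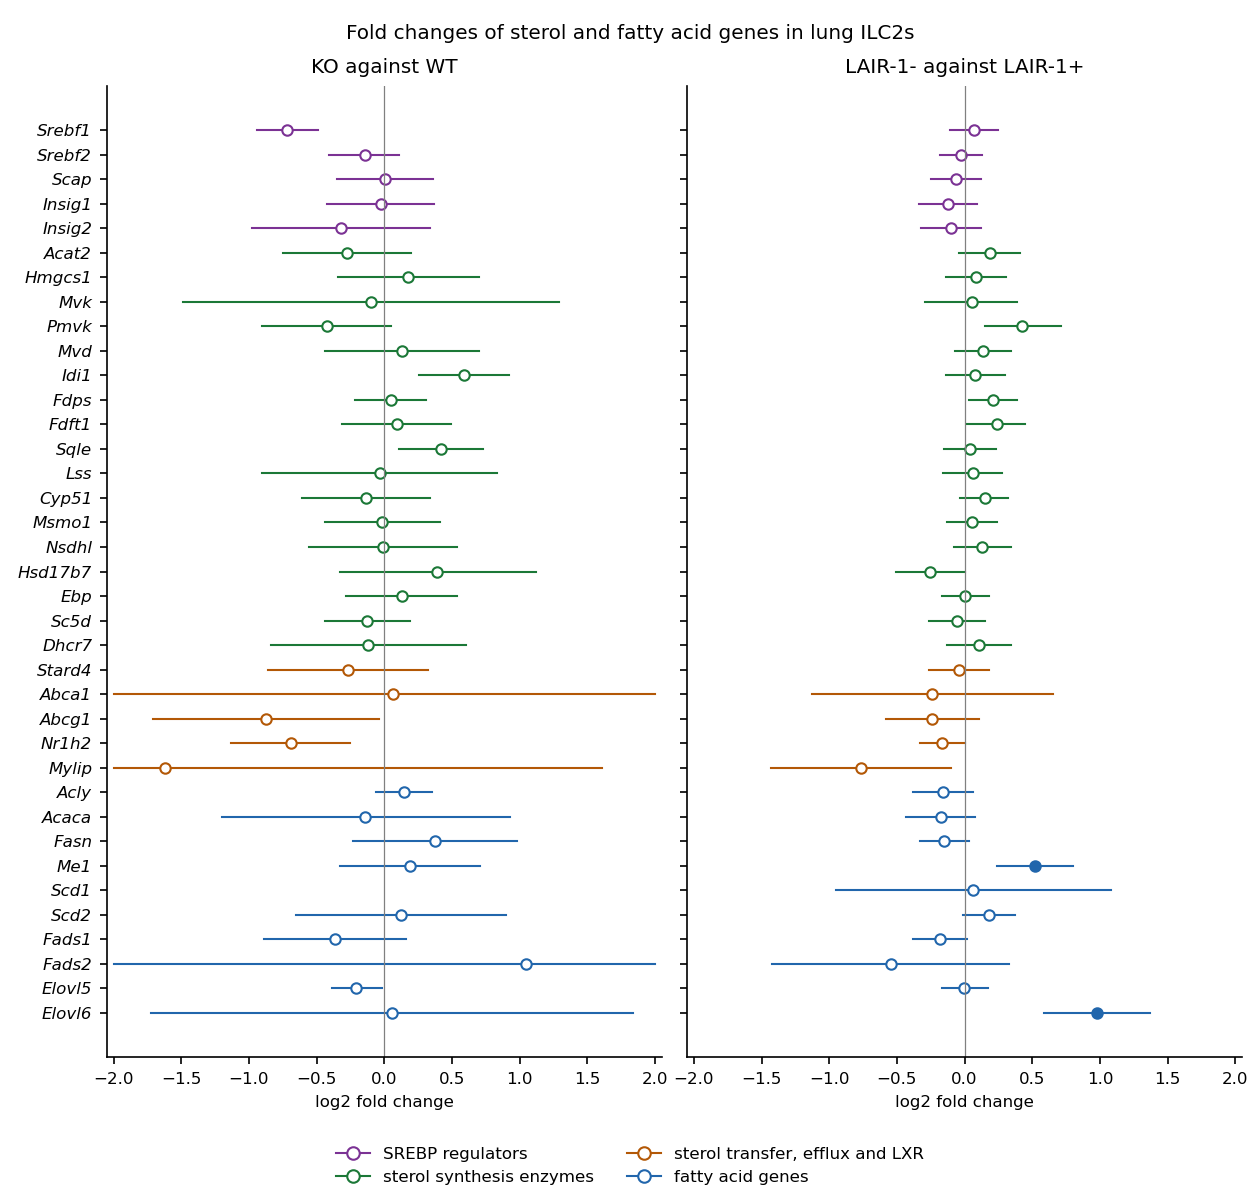
Log2 fold change of each gene, KO against WT (left) and LAIR-1- against LAIR-1+ (right), from fits of 3 libraries a group, with 95% intervals as lines cut at -2 and 2; colours mark the 4 roles and filled points the genes with an adjusted p under 0.05. Scd1 has no point on the left. The 2 filled points are Elovl6 and Me1 on the right. On the left all points are open. There the intervals of Srebf1 (-0.94 to -0.49), Nr1h2, Abcg1 and Elovl5 lie below 0, and those of Idi1 and Sqle above 0.

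Sterol enzymes had log2 fold changes above 0 in LAIR-1- cells for 15 of 17, with a median of 0.08 (0.06 to 0.14 with a library left out, the highest without LAIR-1+ 2), against 51.0% above 0 and a median of 0.00 over all genes. Their summed level was 1190, 1160 and 1200 CPM in LAIR-1- libraries 7, 8 and 10 and 1100, 1130 and 1090 CPM in LAIR-1+ libraries 1, 2 and 3, without overlap. No enzyme passed; 5 of 17 were higher without overlap (29.4%, against 9.64% of all genes) and 1 was lower (5.88%, against 11.3%). Pmvk, phosphomevalonate kinase, came nearest, with 32.4, 40.1 and 31.2 CPM in LAIR-1- cells and 24.2, 23.9 and 28.8 CPM in LAIR-1+ cells (log2 fold change 0.43, SE 0.13), an adjusted p of 0.103 by edgeR and 0.0402 by DESeq2. Fdps, farnesyl diphosphate synthase, had 153, 179 and 152 CPM in LAIR-1- cells and 139, 134 and 146 CPM in LAIR-1+ cells (log2 fold change 0.21, SE 0.08, adjusted p 0.239).

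Fdft1, squalene synthase, had 45.6, 48.7 and 53.4 CPM in LAIR-1- cells and 39.3, 42.1 and 43.9 CPM in LAIR-1+ cells (log2 fold change 0.24, SE 0.10, adjusted p 0.268). Mvd, which decarboxylates diphosphomevalonate, and Nsdhl, a demethylating dehydrogenase, had smaller differences of 0.14 and 0.13 (adjusted p 0.561 and 0.595). Hsd17b7, a ketoreductase of the same late steps as Nsdhl, went the other way with 20.4, 20.5 and 24.2 CPM in LAIR-1- cells and 24.9, 27.5 and 25.4 CPM in LAIR-1+ cells (log2 fold change -0.26, SE 0.12, adjusted p 0.328). Idi1 and Sqle overlapped between the fractions, and Idi1 had a log2 fold change of 0.08 (95% interval -0.14 to 0.30). Exons of Fdps share 26.7% of their bases with Gm43738 on the same strand and those of Fdft1 share 18.3% with Ctsb on the opposite strand, and Acat2 has a near-identical copy, so how counts were split among these is uncertain.

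None of the 5 regulators separated the fractions. Srebf1 had 145, 177 and 164 CPM in LAIR-1- cells and 149, 159 and 156 CPM in LAIR-1+ cells, overlapping, with a log2 fold change of 0.07 (SE 0.08, 95% interval -0.11 to 0.25, adjusted p 0.78). That interval does not reach the -0.72 estimated for KO against WT, but the difference between the 2 experiments was not tested. Srebf2 had 214, 243 and 231 CPM in LAIR-1- cells and 237, 226 and 238 CPM in LAIR-1+ cells (log2 fold change -0.03, 95% interval -0.18 to 0.13, adjusted p 0.911). Insig1 had 73.1, 68.2 and 79.6 CPM in LAIR-1- cells and 73.6, 89.6 and 77.9 CPM in LAIR-1+ cells (log2 fold change -0.13, SE 0.10, adjusted p 0.614). Scap and Insig2 overlapped as well.

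All 5 genes of sterol transfer, efflux and LXR had log2 fold changes below 0 in LAIR-1- cells, where 51.0% of all genes lay above 0. Their median was -0.24 (-0.24 to -0.14 with a library left out, nearest 0 without LAIR-1+ 3), against 0.005 over all genes. None passed, and Stard4 was close to 0 at -0.041 (SE 0.10). Nr1h2 had 103, 107 and 98.0 CPM in LAIR-1- cells and 117, 109 and 119 CPM in LAIR-1+ cells, without overlap (log2 fold change -0.17, SE 0.07, adjusted p 0.307). Mylip had 4.68, 2.89 and 2.75 CPM in LAIR-1- cells and 3.74, 7.51 and 6.17 CPM in LAIR-1+ cells (log2 fold change -0.77, SE 0.30, adjusted p 0.24). Only LAIR-1+ 1 among the LAIR-1+ libraries fell inside the LAIR-1- range. Abcg1 had 11.3, 14.1 and 10.7 CPM in LAIR-1- cells and 14.2, 15.7 and 12.6 CPM in LAIR-1+ cells (log2 fold change -0.24, SE 0.16, adjusted p 0.541), and Abca1 had 2.26, 2.20 and 2.51 CPM in LAIR-1- cells and 1.09, 3.90 and 3.22 CPM in LAIR-1+ cells (log2 fold change -0.24, SE 0.41, adjusted p 0.85).

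Macrophages express both efflux pumps, and their markers moved with the fractions. Of 8 macrophage markers 7 were listed, summing to 6.44 to 37.2 CPM in LAIR-1- cells and 63.6 to 170 CPM in LAIR-1+ cells. Lyz2 had 2.47, 1.84 and 0 CPM in LAIR-1- cells and 22.6, 11.1 and 20.6 CPM in LAIR-1+ cells (adjusted p 0.00627), while Mrc1 was at 0 in all libraries but LAIR-1+ 2 and Adgre1 was at most 0.755 CPM. Of 7 epithelial markers 5 were listed, summing to 24 to 31.7 CPM in LAIR-1- cells and 24.7 to 97.7 CPM in LAIR-1+ cells, with Sftpc at or near 0 in all. Epcam passed as higher in LAIR-1- cells (adjusted p 0.0461) and Scgb1a1, at 0 in all 3 LAIR-1- libraries, as lower (adjusted p 0.00666). The 4 mast cell and basophil markers summed to 26.5 to 35 CPM in LAIR-1- and 33.9 to 68.1 CPM in LAIR-1+ cells, with 1 of 4 higher in LAIR-1- cells. B cell markers (3 of 4 listed) summed to 11.7 to 14.2 and 6.96 to 10.8 CPM. T cell markers (5 of 6 listed) summed to 65.2 to 83.8 and 54.2 to 66.5 CPM. NK cell and ILC1 markers (4 of 5 listed) summed to 0 to 2.02 and 2.87 to 3.82 CPM. Dendritic cell markers (2 of 4 listed) summed to 36.6 to 39.3 and 40.2 to 45.4 CPM. Eosinophil and neutrophil markers (3 of 5 listed) were at 0 in LAIR-1- cells and summed to 0.271 to 2.35 CPM in LAIR-1+ cells, too low to test. No marker of the mast cell, B cell, T cell, NK cell or dendritic cell lists passed. Of the ILC2 markers, Klrg1 and Icos passed as higher and Arg1 as lower in LAIR-1- cells. Of 5 markers of fibroblasts and endothelium 3 were listed, without Cdh5 and Col1a2. Pecam1, the 1 tested, passed as higher in LAIR-1- cells. The part of these in the efflux genes, Elovl6 and Me1 was not tested. Mitochondrial mRNAs summed to 5790 to 7720 CPM in LAIR-1- cells and 6710 to 7290 CPM in LAIR-1+ cells.

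**Figure D4:**
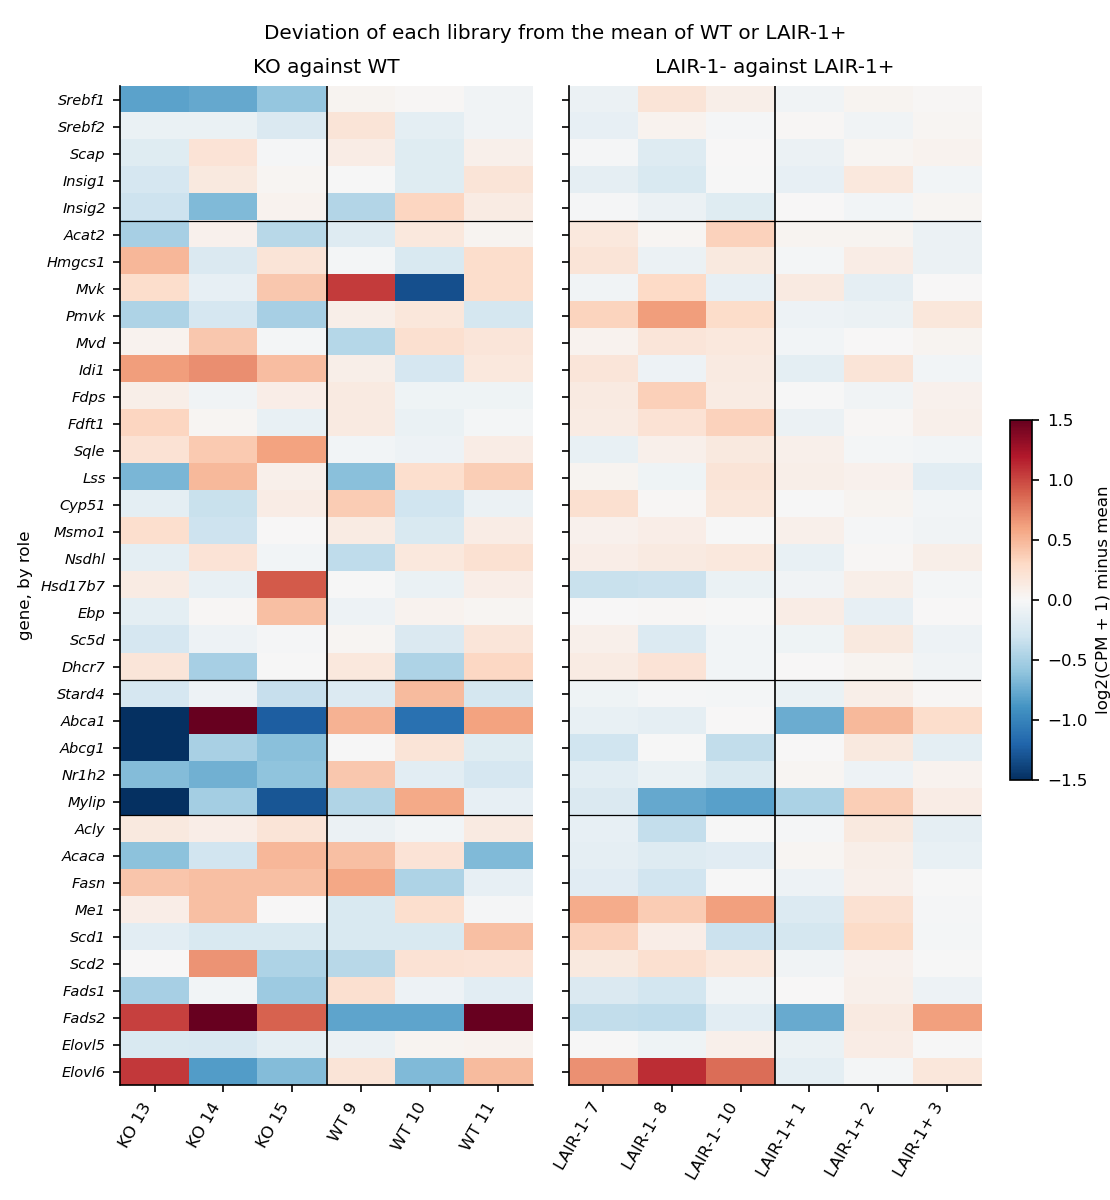
Each library's log2(CPM + 1) minus the mean of the 3 WT libraries (left) or the 3 LAIR-1+ libraries (right) for the 37 genes, colours cut at -1.5 and 1.5, with horizontal lines between the 4 roles and a vertical line between the groups. Srebf1 and Nr1h2 are blue in all 3 KO libraries, and Elovl6 and Me1 are red in all 3 LAIR-1- libraries, while most sterol enzymes are pale.

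Other genes of the pathway were taken from lists by function. In KO against WT none passed among 7 genes of SREBP processing and INSIG turnover, 7 further genes of sterol and isoprenoid synthesis, 12 of sterol storage, transport and LXR partners, and 10 of fatty acid synthesis. In the sorted fractions 1 of 7, 7, 12 and 13 such genes passed, as lower in LAIR-1- cells. A share of 2.71% of all genes did the same, so this count is near the background. The gene was Npc2, a cholesterol-binding protein of the lysosome, lower in LAIR-1- cells with 86.6, 88.9 and 86.6 CPM, against 119, 106 and 120 CPM in LAIR-1+ cells (log2 fold change -0.40, SE 0.08, adjusted p 0.013). The groups were well apart, and the adjusted p was 0.0728 with LAIR-1- 7 left out, 0.0502 with LAIR-1- 10 and 0.0817 with LAIR-1+ 1. Of the 12 storage, transport and LXR partner genes, 5 were lower in LAIR-1- cells without overlap (41.7%, against 11.3% of all genes) and 1 higher.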

How the data were processed

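Illumina RNA libraries were made from 12 samples of lung ILC2s. Both experiments have their own deposited sheets, 1 of estimated counts and 1 of CPM, for the same genes; per the submitters' processing notes, mm10, STAR 2.5.3a, Partek and bcl2fastq 2.17.1.14 were used. Which tool counted, and on which annotation, is not given in the sources used here. Of the deposited estimated counts, 47.9% (KO and WT) and 44.4% (sorted) were not whole within 0.001, and the deposited CPM values are proportional to them within each library, plus 1e-04. They sum to 868953 to 888071 in KO and WT libraries and 881214 to 900057 in sorted ones, so the authors' divisor was larger than the listed counts.

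Groups came from the sample labels. After rounding of the estimated counts, each experiment's 6 libraries were fitted alone with edgeR 4.0.16 in R 4.3.3 (filterByExpr, TMM, quasi-likelihood F test, Benjamini-Hochberg over all genes tested), with no term for replicate. Standard errors come from the F statistic, and 95% intervals from its degrees of freedom. Levels per kilobase use merged exons of GENCODE M21 (GRCm38), whose gene spans matched all 37 members once the deposited end, which counts 1 base beyond, was lowered by 1. Promoter windows came from RefSeq. The fits were tested on simulated counts. The floor of 3 counts behind a 0 covers counting error only.

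The members, gene lists and rules were chosen with earlier results of these data known. Named in full are members that passed, Srebf1, Srebf2, Insig1, Abca1, Abcg1, Fasn, Scd1, and members without overlap and a log2 fold change of at least 0.5; other members without overlap were named after their values were seen. Alternatives were library totals alone, size factors by median of ratios, testing without the filter, means of 5 or 50 CPM as the minimum, DESeq2 1.42.0, limma-voom, limma-trend (limma 3.58.1) on log2 of the authors' CPM plus 1 or 0.1, and each library left out.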

Additional observations from a re-analysis of the deposited data

How the results depend on the processing

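The groups compared share no replicate numbers, so no pairing was used. The labels do not say whether LAIR-1- and LAIR-1+ libraries came from the same animals. If they did, the fits between the fractions ignore that pairing. In KO against WT, 1 gene passed by edgeR, with 5 when genes averaged 5 CPM or more, 55 when genes averaged 50 CPM or more, 297 by DESeq2 and 0 to 0 with each library left out; members passing numbered 0, with 1 when genes averaged 50 CPM or more (Srebf1) and 3 by DESeq2 (Srebf1 and Nr1h2 lower, Idi1 higher), and 0 to 0 with each library left out. Members without overlap numbered 7, and 7 to 13 with a library left out, where 3 libraries face 2; the 13 came without KO 14. Between the sorted fractions 572 genes passed, with 250 when genes averaged 50 CPM or more and 333 to 516 with a library left out (333 when it was LAIR-1+ 1, 369 for LAIR-1+ 2 and 374 for LAIR-1- 7). Members passing there numbered 2, with 1 without the filter, 0 when genes averaged 50 CPM or more, where Elovl6 and Me1 are not tested, and 1 to 2 with a library left out. Members without overlap numbered 11, with 3 when genes averaged 50 CPM or more. They numbered 12 to 17 with a library left out, where 3 libraries face 2, the 17 without LAIR-1+ 1. In neither comparison was the share of all genes without overlap computed for the fits with a library left out.

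Among the genes named, these signs turned. In KO against WT, Abca1 was -2.39 by limma-voom and -0.50 and -1.51 by limma-trend with offsets of 1 and 0.1, and -3.44 to 0.65 with a library left out. Elovl6 was -0.21, -0.15 and -0.22 in those fits and -1.04 to 0.42 with a library left out, and Insig1 -0.11 to 0.081. Between the fractions Scd1 was -0.039 by limma-voom and -0.23 to 0.36 with a library left out, Abca1 -0.61 to 0.10, Srebf1 -0.001 to 0.15 and Srebf2 -0.073 to 0.025. The cause was not tested. No scaling moved the median of all genes by over 0.1 on the log2 scale.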

Other observations

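Smpdl3a, a phosphodiesterase that LXR is known to induce, was chosen after its values were seen. It had 13, 5.91 and 12.8 CPM in KO libraries 13, 14 and 15, against 42.5, 43.6 and 26.2 CPM in WT libraries 9, 10 and 11, without overlap. Its log2 fold change was -1.83 (SE 0.38), with an adjusted p of 0.291 by edgeR and 0.0011 by DESeq2, and from 0.239 to 0.697 by edgeR with a library left out. Between the fractions it had 12, 9.45 and 8.15 CPM in LAIR-1- cells and 13.5, 12.7 and 14.5 CPM in LAIR-1+ cells, with an adjusted p of 0.192.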
